A study of Rattus norvegicus with 36 samples.

Results

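The genes described here are the subunits of the mitochondrial respiratory chain and ATP synthase in alveolar macrophages taken from male F344 rats into culture. These cells are the resident phagocytes of the air spaces. The set was chosen with earlier results of these data known, and its genes were then taken by name and level. Their names began with Ndufa, Ndufb, Ndufc, Ndufs or Ndufv followed by a digit, or with Uqcr, Cox4 to Cox8 or Atp5. The succinate dehydrogenase genes Sdha to Sdhd and the mitochondrially encoded genes were also taken. Each needed a mean of at least 1 CPM, the count scaled to library size, over the 36 libraries. Of the 23487 genes in the deposited table, 101 had such names and 88 reached that level, of which 75 were nuclear and 13 were mitochondrially encoded. By complex, as the gene names assign them, the nuclear genes comprised 34 of 39 names for complex I, 4 of 4 for complex II, 9 of 9 for complex III, 12 of 20 for complex IV and 16 of 16 for ATP synthase. All 88 passed the filter on low counts. The member nearest above the level was Cox6b1.1 with a mean of 14.0 CPM, and the name nearest below it was Cox4i2 with 0.264 CPM, so no gene lay close to the threshold. Among the 13 names below it, Ndufa1 and 3 others had no count in any library, and Ndufs6 had 3 counts in all. These values rest on the authors' gene annotation, under which reads of a gene can be listed under another name or lost, so they do not show that Ndufa1 and Ndufs6 were not expressed. The deposited counts held no gene named Cox7a2, so it could not be analysed here.

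The cells were kept in culture and exposed for 4 days. The particles were G1-1, G3-1 and Bayertitan, all titanium dioxide, and Printex90, a carbon black. For each of the 4 particles there were 3 control, 3 non-overload and 3 overload libraries, which gave 12 groups, each particle with controls of its own. The series asks how alveolar macrophages of several species respond to particle overload, and no dose is stated in the labels. The labels call the replicates biological and name no animal or culture for them. The p-values therefore reflect only how much these samples differed, part of which may be technical.

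Oxidative phosphorylation couples the oxidation of NADH and succinate to the making of ATP. Complex I oxidises NADH, complex II oxidises succinate, complex III passes the electrons to cytochrome c, and complex IV hands them to oxygen. Complexes I, III and IV pump protons across the inner mitochondrial membrane, and ATP synthase, also called complex V, uses the proton gradient. Most subunits are encoded in the nucleus and imported, while the mitochondrial genome encodes core subunits of complexes I, III and IV and of ATP synthase. Alveolar macrophages are known to rely on mitochondrial oxidation of lipids and other fuels in the oxygen-rich air space.

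The libraries held between 26.1 and 43.2 M counts. Markers of macrophages were high in all of them: the summed level of 13 marker genes lay between 16845 and 25056 CPM, and Lyz2, the macrophage lysozyme, between 11242 and 17675 CPM. Marco, a scavenger receptor often used to mark alveolar macrophages, was low at 0.0296 to 1.09 CPM. Markers of other cell types were detected as well, and bulk samples do not show which cells made them. The 9 epithelial markers summed to between 1106 and 2215 CPM, although the surfactant genes Sftpc and Sftpb stayed below 1 CPM in every library. Col3a1, a collagen gene of fibroblasts, exceeded 10 CPM in 8 libraries, namely G1-1 overload 2, Printex90 control 2 and non-overload 2, G3-1 control 1 and 2 and overload 1 and 2, and Bayertitan non-overload 1. In the other 28 it was at most 2.88 CPM. Since these are bulk samples, fewer cells of a type and less RNA per cell cannot be told apart.

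Nuclear subunits together made up between 0.754% and 0.931% of all counts, and the mitochondrially encoded genes between 2.94% and 5.12%. The G1-1 groups had a nuclear share of 0.823% ± 0.0173 in control and 0.832% ± 0.0172 in overload (SD, n = 3 each), a difference smaller than the spread. In Printex90 the share was 0.882% ± 0.00868 in control and 0.911% ± 0.0182 in overload. Bayertitan control 1 and Bayertitan overload 1 stood low, at 0.754% and 0.778%, and they also had low shares of cytosolic ribosomal protein counts among the Bayertitan libraries, at 1.85% and 1.86%. Overload libraries of G1-1 differed from all others in that ribosomal share: it was 1.58%, 1.65% and 1.61% over 73 genes, against 2.10% ± 0.0973 in their controls and group means of 2.09% to 2.33% elsewhere. Whether that shift in composition plays a part in the values below was not tested.

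**Figure D1:**
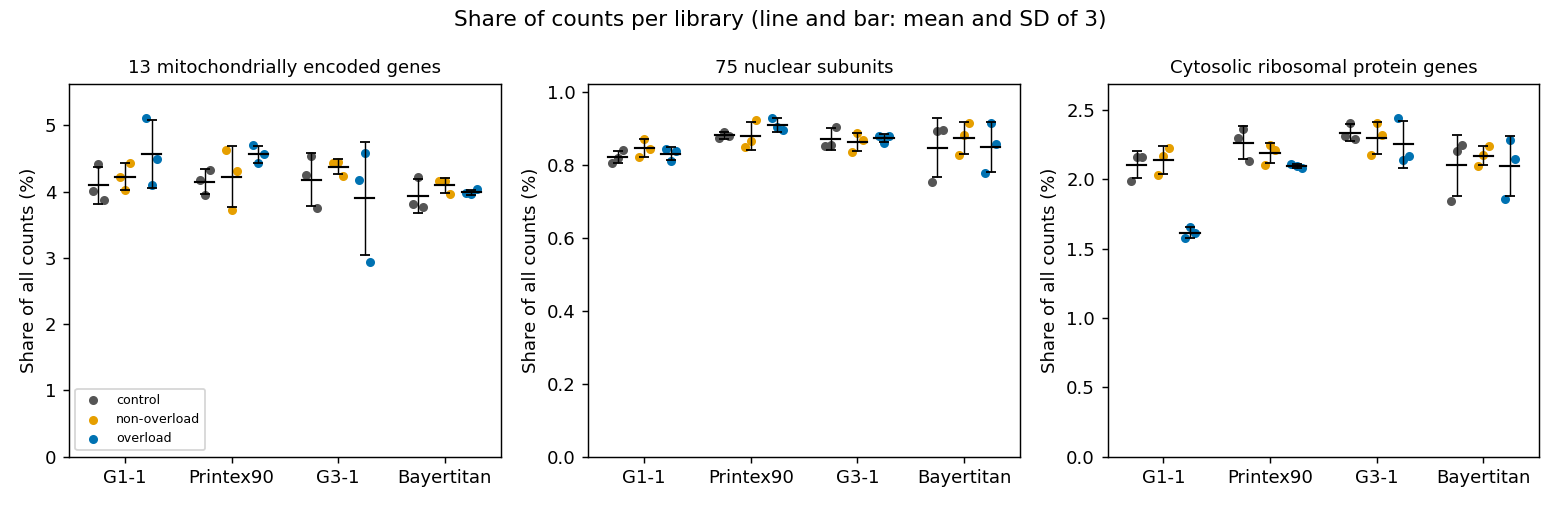
Shares of all counts, in percent, taken by the 13 mitochondrially encoded genes, the 75 nuclear subunits and 73 cytosolic ribosomal protein genes in each of the 36 libraries, by particle and condition. G3-1 overload 3 has the lowest mitochondrial share at 2.94%, Bayertitan control 1 the lowest nuclear share at 0.754%, and the 3 G1-1 overload libraries the lowest ribosomal shares at 1.58% to 1.65%.

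Under G1-1 overload, 24 of the 75 nuclear subunits differed from control, 15 higher and 9 lower, and complexes I and III and ATP synthase each held both directions. A pair of accessory subunits of complex I, Ndufb7 and Ndufb10, fell furthest, by 44.0% and 42.7% of their control levels, while the Rieske protein Uqcrfs1, the catalytic ATP synthase subunit Atp5f1b and several complex IV subunits rose. A call means an adjusted p under 0.05 (Benjamini-Hochberg) in edgeR's quasi-likelihood test. Among all 14606 genes tested, 28.1% were called in this comparison, 13.7% higher and 14.4% lower, so the members were called about as often as genes at large. The median log2 fold change of the 75 was 0.04, beside -0.02 for all genes. DESeq2 called 16 higher and 9 lower. Markers of the macrophages themselves moved in the same libraries: of 13, 6 were lower and 2 higher than in control (median log2 fold change -0.11), and 5 were lower and 0 higher than in non-overload. Their summed level was 18651 to 19657 CPM in G1-1 control and 16845 to 20464 CPM in G1-1 overload, and their part in the result was not tested.

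Ndufb7 is an accessory subunit on the intermembrane-space side of complex I. In the G1-1 libraries it measured 37.6, 42.2 and 43.2 CPM in control, 38.8, 43.98 and 40.3 in non-overload and 22.5, 22.6 and 23.8 in overload. The 3 overload libraries lay far below the other 33 libraries of the study, whose lowest value was 36.9 CPM. The log2 fold change against control was -0.84 ± 0.07 (SE, adjusted p = 5.82e-10). In Printex90 the gene measured 42.2, 44.6 and 44.6 CPM in control, 44.3, 45.6 and 45.1 in non-overload and 49.8, 48.2 and 46.5 in overload. In G3-1 it measured 43.8, 43.9 and 46.2 CPM in control, 45.04, 41.4 and 42.4 in non-overload and 45.1, 42.2 and 44.7 in overload, and in Bayertitan 39.2, 43.7 and 45.8 CPM in control, 39.1, 45.3 and 46.7 in non-overload and 36.9, 45.9 and 43.3 in overload. Printex90 overload lay above its controls, and the groups of the other particles overlapped. The log2 fold changes were 0.14, -0.02 and -0.03, none of them called.

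Ndufb10, another accessory subunit of the membrane arm of complex I, showed the same pattern. Its values in the G1-1 libraries were 55.2, 51.4 and 52.8 CPM in control, 49.6, 55.3 and 53.4 in non-overload and 30.3, 30.6 and 30.4 in overload. The overload values were nearly identical and did not overlap the controls, and the lowest value in the other 33 libraries was 46.5 CPM. The log2 fold change was -0.80 ± 0.08 (SE, adjusted p = 2.25e-08). Printex90 gave 57.4, 54.3 and 58.7 CPM in control, 51.7, 58.5 and 59.7 in non-overload and 57.1, 55.8 and 57.97 in overload. G3-1 gave 56.3, 49.2 and 58.6 CPM in control, 53.9, 55.2 and 52.3 in non-overload and 55.8, 50.4 and 56.2 in overload, and Bayertitan 48.9, 59.95 and 53.7 CPM in control, 46.5, 51.6 and 59.2 in non-overload and 46.7, 56.6 and 46.6 in overload. In these 3 particles control and overload overlapped, and the log2 fold changes were 0.00, -0.01 and -0.11. Under every alternative processing tried, both genes kept their call in G1-1, with log2 fold changes between -0.89 and -0.80 for Ndufb7 and between -0.86 and -0.77 for Ndufb10.

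Ndufs4 is an accessory subunit that stabilises the NADH-oxidising part of complex I, and its loss in humans causes Leigh syndrome. In G1-1 it measured 33.8, 31.99 and 33.3 CPM in control, 30.9, 32.002 and 34.3 in non-overload and 24.9, 24.3 and 27.3 in overload. The overload libraries again lay below every other library, the lowest of which was a Bayertitan overload library. Its log2 fold change was -0.37 ± 0.06 (SE, adjusted p = 2.21e-05). In Printex90 it measured 34.98, 36.2 and 35.3 CPM in control, 34.2, 33.6 and 36.7 in non-overload and 37.2, 35.8 and 35.6 in overload, in G3-1 32.9, 35.6 and 33.3 CPM in control, 32.9, 32.6 and 32.5 in non-overload and 34.6, 33.3 and 32.6 in overload, and in Bayertitan 30.3, 35.6 and 35.3 CPM in control, 32.6, 34.1 and 36.2 in non-overload and 29.99, 33.1 and 35.1 in overload. Those groups overlapped, with log2 fold changes of 0.03, -0.02 and -0.04.

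Other members that fell under G1-1 overload are named here after their values were seen. Ndufv3, a subunit of the NADH-oxidising arm of complex I, went from 53.4 ± 2.55 CPM (SD, n = 3) in control to 40.5 ± 1.26 in overload, a log2 fold change of -0.40 ± 0.07 (SE, adjusted p = 4.87e-05). Atp5if1, the protein that blocks ATP synthase from running backwards and consuming ATP, went from 196 ± 4.21 to 150.1 ± 17.6 CPM, with a log2 fold change of -0.38 ± 0.08 (SE, adjusted p = 0.00057). Atp5pd, a subunit of the stalk that holds ATP synthase still, went from 122 ± 4.82 to 95.7 ± 5.02 CPM, with a log2 fold change of -0.35 ± 0.07 (SE, adjusted p = 0.000505). For each of these 3 genes the G1-1 overload libraries were the lowest of all 36. The remaining 3 that fell were Uqcrh, the hinge protein of complex III, at -0.31 (adjusted p = 0.00857), Ndufa8 of complex I at -0.22 (adjusted p = 0.0209), and Atp5f1c, the rotating central stalk of ATP synthase, at -0.13 (adjusted p = 0.0124). Of the 9 that fell, these last 3 lost their calls without overload 2, a library with high Col3a1, Ndufa8 also without overload 3 and Atp5f1c also without control 3, while the other 6 kept theirs under every alternative.

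**Figure D2:**
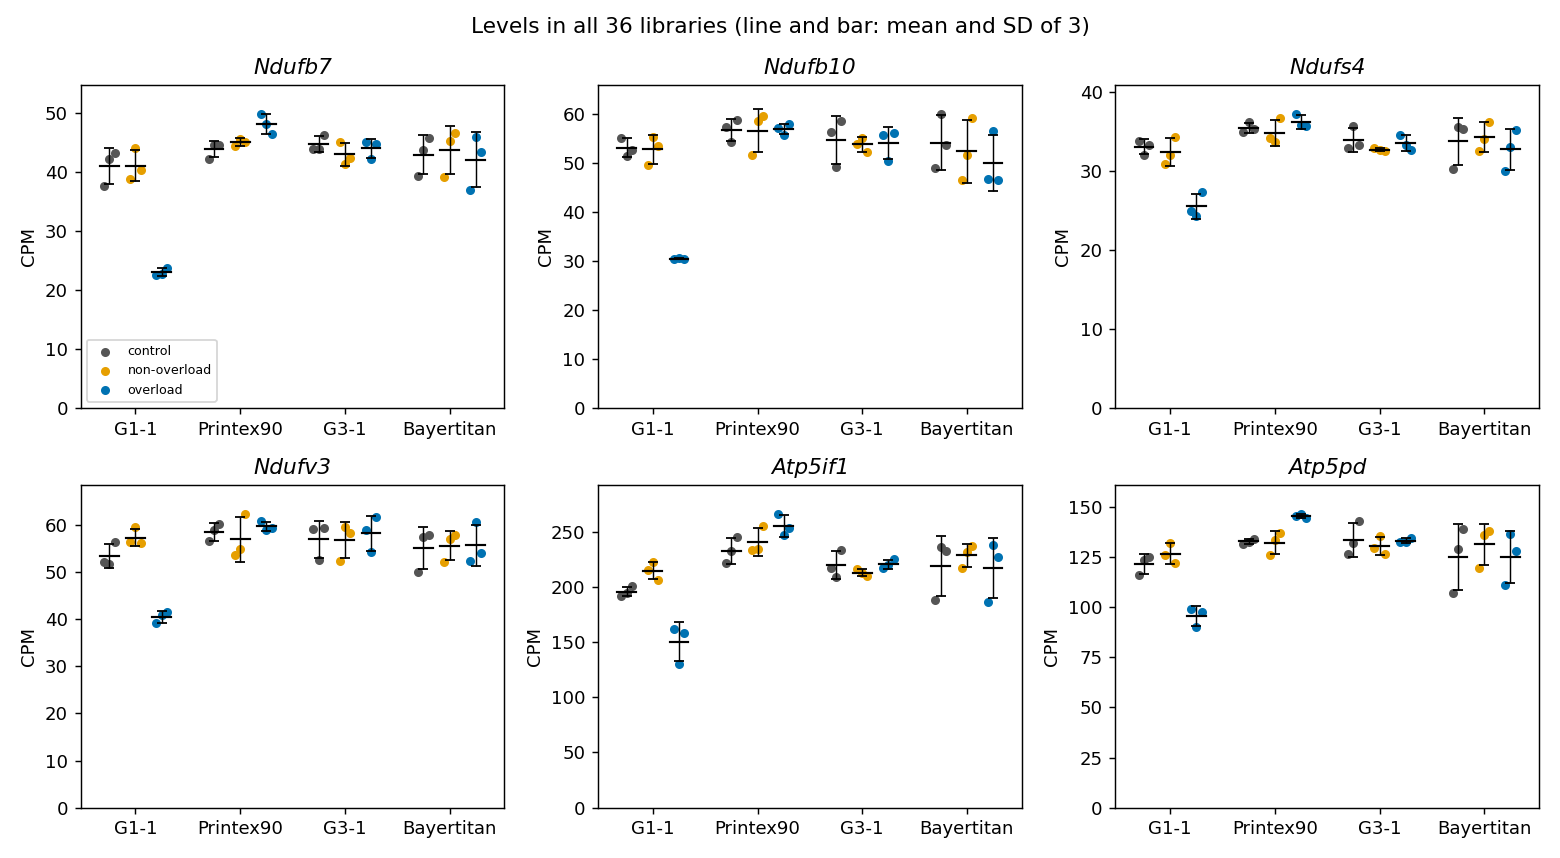
Level in CPM of Ndufb7, Ndufb10, Ndufs4, Ndufv3, Atp5if1 and Atp5pd in each of the 36 libraries, by particle and condition, with each axis starting at 0. The 3 G1-1 overload libraries lie below every other library in all 6 panels, for example at 22.5 to 23.8 CPM for Ndufb7 against 36.9 CPM or more elsewhere.

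The members that rose under G1-1 overload came from every complex, with 4 in complex I, 1 in complex II, 1 in complex III, 4 in complex IV and 5 in ATP synthase. By the largest changes these were Atp5mg and Cox8a. Atp5mg, subunit g of the membrane part of ATP synthase, measured 122, 133 and 136 CPM in control, 135, 155 and 145 in non-overload and 176, 147 and 174 in overload. All 3 overload libraries lay above the controls, although non-overload 2 lay above overload 2. Its log2 fold change was 0.35 ± 0.11 (SE, adjusted p = 0.0152). Cox8a, a small accessory subunit of complex IV, measured 153, 159.99 and 173 CPM in control, 176, 193 and 171 in non-overload and 209.6, 182 and 218 in overload. Here too overload lay above control and overlapped non-overload, with a log2 fold change of 0.33 ± 0.10 (SE, adjusted p = 0.0104). Without overload 3 both lost their calls, and Atp5mg also without overload 1 or control 1, with log2 fold changes between 0.27 and 0.43 for Atp5mg and between 0.25 and 0.41 for Cox8a over all alternatives.

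In the other particles neither gene was called. Atp5mg measured 156, 151 and 159 CPM in control, 143, 139 and 164 in non-overload and 175, 171 and 168 in overload for Printex90. For G3-1 it measured 136, 144 and 155 CPM in control, 139, 157 and 146 in non-overload and 151, 158 and 145 in overload, and for Bayertitan 105, 160.1 and 161 CPM in control, 145, 155 and 173 in non-overload and 130.4, 163 and 153 in overload. The Printex90 overload libraries lay above their controls, with a log2 fold change of 0.14 (adjusted p = 0.413), and in the other particles the groups overlapped. Cox8a measured 177, 179.7 and 183 CPM in control, 173, 184 and 206 in non-overload and 222, 193 and 204 in overload for Printex90. For G3-1 it measured 171, 172 and 189.7 CPM in control, 178, 186 and 179 in non-overload and 186, 191 and 182 in overload, and for Bayertitan 141, 193 and 187 CPM in control, 171, 186 and 204 in non-overload and 154, 201 and 183 in overload. Again the Printex90 overload libraries all exceeded their controls, with a log2 fold change of 0.20 (adjusted p = 0.171).

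The smallest adjusted p-values among the members that rose belonged to genes with smaller changes, named after their values were seen. Uqcrfs1, the Rieske iron-sulfur protein of complex III, measured 133, 127 and 139 CPM in control, 143, 142 and 140.4 in non-overload and 166, 157 and 171 in overload in the G1-1 libraries, so overload lay above both other conditions. Its log2 fold change was 0.31 ± 0.06 (SE, adjusted p = 0.000128). Atp5f1b, the catalytic beta subunit of ATP synthase, measured 1143, 1102 and 1180.3 CPM in control, 1142, 1167 and 1148 in non-overload and 1327, 1294 and 1422 in overload, with overload again above both. Its log2 fold change was 0.24 ± 0.05 (SE, adjusted p = 0.000296). Atp5f1a, the alpha subunit that forms the catalytic ring with it, rose by 0.15 (adjusted p = 0.0429) on the log2 scale, and Atp5f1d of the central stalk by 0.23 (adjusted p = 0.0092). In complex IV, Cox5a rose by 0.24 (adjusted p = 0.0139), Cox6a1 by 0.27 (adjusted p = 0.0371) and Cox7a2l, known for joining complexes III and IV, by 0.18 (adjusted p = 0.0142), the last with overlapping groups. In complex I, Ndufc1 rose by 0.30 (adjusted p = 0.0338), and Ndufv1 and Ndufs8, core subunits that carry electrons, rose by 0.15 and 0.19. Apart from Uqcrfs1 and Atp5f1b, each of the genes named in this paragraph lost its call when G1-1 overload 3 was left out, except Cox5a, which lost it without overload 1 or control 1, and most of them also lost it without another G1-1 library.

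The counts of higher and of lower members in G1-1 overload both changed with scaling, with the epithelial covariate and with the libraries included. With scaling by total counts, 9 were higher and 13 lower and the median became -0.02. With the epithelial marker level as a covariate, 4 were higher and 11 lower. The epithelial markers summed to 1584 to 2131 CPM in G1-1 control and 1192 to 1761 CPM in G1-1 overload, and their part in the result was not tested beyond that covariate. Without the 8 libraries with high Col3a1, 19 were higher and 6 lower. Single libraries mattered as well: without overload 3 the count of 24 became 11, and without control 1 it became 15.

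**Figure D3:**
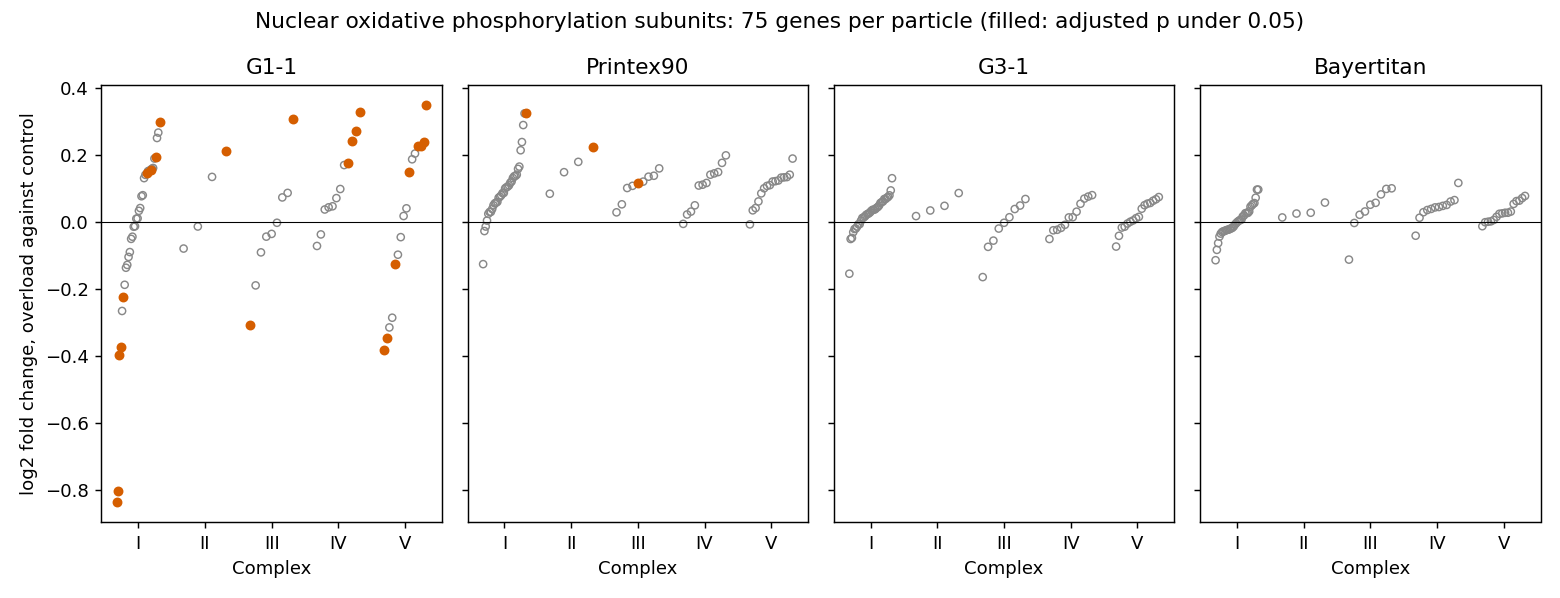
Log2 fold change of overload against control for each of the 75 nuclear subunits, by complex and particle, with filled points for an adjusted p under 0.05 in edgeR. In G1-1 points spread both ways, from -0.84 for Ndufb7 to 0.35 for Atp5mg, in Printex90 70 of 75 lie above 0 with 3 filled, and in G3-1 and Bayertitan none is filled.

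Promoter sequences are shown for 4 members, the pair with the largest falls and a pair that rose, because these 4 kept their calls under every alternative both in G1-1 and in the mean response. RefSeq promoter windows in the GRCr8 assembly, from 250 bases before to 50 after the gene's start, were matched by symbol for 63 of the 75 nuclear members. The counts rest on another build, Rnor_6.0, so these windows bear on no coordinate of the counts. Each sequence runs 5′ to 3′ on the gene's strand, and capitals mark a match to CCGGAAG, the letters bound by ETS factors such as GABP. The windows are chr19:41477242-41477541 on the minus strand for Ndufb7, chr10:14255917-14256216 on the minus strand for Ndufb10, chr17:34186352-34186651 on the plus strand for Uqcrfs1 and chr7:1099808-1100107 on the plus strand for Atp5f1b.
Ndufb7: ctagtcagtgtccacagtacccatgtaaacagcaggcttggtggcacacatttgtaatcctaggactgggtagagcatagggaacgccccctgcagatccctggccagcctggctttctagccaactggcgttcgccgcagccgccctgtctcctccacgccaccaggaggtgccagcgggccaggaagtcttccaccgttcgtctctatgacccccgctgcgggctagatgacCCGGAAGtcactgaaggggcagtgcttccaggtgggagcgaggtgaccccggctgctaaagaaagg
Ndufb10: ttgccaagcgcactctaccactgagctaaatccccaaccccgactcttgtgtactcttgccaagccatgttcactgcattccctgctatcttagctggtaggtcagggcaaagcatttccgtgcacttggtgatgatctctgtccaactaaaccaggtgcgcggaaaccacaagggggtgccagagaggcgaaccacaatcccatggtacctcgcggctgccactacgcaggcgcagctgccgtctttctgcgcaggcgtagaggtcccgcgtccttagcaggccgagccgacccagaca
Uqcrfs1: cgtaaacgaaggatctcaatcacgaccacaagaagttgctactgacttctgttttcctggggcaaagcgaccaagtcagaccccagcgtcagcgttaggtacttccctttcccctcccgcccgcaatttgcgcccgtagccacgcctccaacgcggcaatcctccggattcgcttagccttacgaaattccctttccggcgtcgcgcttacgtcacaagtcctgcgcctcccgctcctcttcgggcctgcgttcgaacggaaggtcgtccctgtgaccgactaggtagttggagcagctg
Atp5f1b: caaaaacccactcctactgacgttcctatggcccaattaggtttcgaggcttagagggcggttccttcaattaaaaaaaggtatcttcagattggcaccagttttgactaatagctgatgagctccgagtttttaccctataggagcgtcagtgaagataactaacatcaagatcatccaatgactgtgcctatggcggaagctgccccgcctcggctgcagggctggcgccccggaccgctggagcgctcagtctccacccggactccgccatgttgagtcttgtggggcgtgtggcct
The match in Ndufb7 begins at position -16 relative to the start and lies on the gene's strand. The other 3 windows held none of the 3 motifs searched.

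The motifs were ACGTG, the core of the site of the hypoxia-inducible factor HIF, CCGGAAG, and the palindromic site of NRF1, a regulator of mitochondrial genes. They were searched on both strands, and none of the 3 holds another. CCGGAAG occurred in 18 of the 63 windows, or 28.6%, against 9.21% of the 27457 promoters in the RefSeq table. The NRF1 site occurred in 4, or 6.35%, against 0.936%. ACGTG occurred in 16, or 25.4%, against 19.7%. The members' windows had a median GC content of 56% against 52.3% for all promoters. Split by direction in G1-1 overload, CCGGAAG was found in 2 of 7 windows of members that fell, 4 of 13 of members that rose and 12 of 43 of the rest. ACGTG was found in 1 of 7, 5 of 13 and 10 of 43 of the same windows, and the NRF1 site in 0, 1 and 3. These are counts over few windows, with no test. A match is a run of letters and not a site shown to be bound.

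Against the non-overload libraries, 19 nuclear subunits differed in G1-1 overload, 5 higher and 14 lower, where 22.7% of all genes were called, 10.3% higher and 12.4% lower. This comparison uses the same overload libraries as the one with control. Ndufb7 and Ndufb10 again fell furthest, by log2 fold changes of -0.84 (adjusted p = 8.06e-10) and -0.79 (adjusted p = 3.46e-08). Next came Atp5me, a small subunit of the membrane part of ATP synthase, at -0.54 (adjusted p = 0.00918), and Atp5if1 at -0.52 (adjusted p = 1.98e-05). Atp5f1b at 0.23 and Uqcrfs1 at 0.22 were among the 5 higher. By complex, the lower ones were 7 in complex I, 2 in complex III and 5 in ATP synthase, and none fell in complexes II and IV. Members that fell against non-overload without a call against control included Atp5me, Atp5mf, Ndufa13, Uqcrb and Ndufb9, whose log2 fold changes against non-overload lay between -0.54 and -0.25. Of the 19 calls, 10 held under every alternative, among them those of Ndufb7, Ndufb10, Atp5if1, Atp5f1b and Uqcrfs1. Atp5me lost its call without the libraries with high Col3a1, as did Atp5mf, Ndufa13, Uqcrb and Ndufb9, and these last 4 also without non-overload 2. All genes in this paragraph other than Ndufb7 and Ndufb10 were picked after their values were seen.

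In Printex90 overload 3 of the 75 nuclear subunits were called, all higher, a smaller share than among genes at large, of which 14.8% of all genes were called, 7.45% higher and 7.31% lower. Of the 75, 70 had a positive log2 fold change, with a median of 0.11 beside -0.01 for all genes, and with scaling by total counts the medians were 0.04 and -0.08. An unadjusted p under 0.05 was reached by 17, and DESeq2 called 10. The 3 were Ndufc2, Sdhb and Uqcrc1. Ndufc2, an accessory subunit of the membrane arm of complex I, measured 44.2, 46.5 and 47.2 CPM in control, 47.4, 39.9 and 49.2 in non-overload and 63.9, 53.95 and 54.6 in overload, so the overload libraries lay above all others of this particle. Its log2 fold change was 0.32 ± 0.11 (SE, adjusted p = 0.0435). In G1-1 it measured 39.3, 47.2 and 40.5 CPM in control, 42.6, 44.1 and 44.3 in non-overload and 57.1, 42.9 and 52.9 in overload, where overload overlapped control, and the log2 fold change was 0.27 (adjusted p = 0.0707). In G3-1 it measured 42.8, 49.3 and 44.5 CPM in control, 47.9, 48.9 and 48.04 in non-overload and 43.3, 52.8 and 40.98 in overload, and in Bayertitan 35.7, 49.5 and 46.7 CPM in control, 46.7, 47.1 and 47.8 in non-overload and 41.2, 49.1 and 46.7 in overload, with overlapping groups.

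Sdhb, the iron-sulfur subunit of complex II, measured 97.4, 102 and 105 CPM in control, 104, 105 and 113 in non-overload and 116, 118 and 121 in overload in the Printex90 libraries, with overload above both other conditions. Its log2 fold change was 0.22 ± 0.06 (SE, adjusted p = 0.0168). Uqcrc1, a core protein of complex III, changed by 0.11 ± 0.04 (SE, adjusted p = 0.0409). None of these 3 calls was held under every alternative: Sdhb lost its call without control replicate 1, without overload replicate 3 and with the epithelial covariate, Ndufc2 under 7 of 15 alternatives and Uqcrc1 under 11 of 15. The count of 3 became 0 without control replicate 1, without overload replicate 3 or with the epithelial covariate, 1 without control replicate 2 or overload replicate 1, and 7 without control replicate 3. Epithelial markers summed to 1106 to 2069 CPM in Printex90 control and 1111 to 1371 CPM in overload. Against non-overload no member was called for Printex90, where 3.51% of all genes were, with 8 at an unadjusted p under 0.05 and 1 called by DESeq2.

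No nuclear subunit passed the test under G3-1 or Bayertitan overload. edgeR called 0 of 75 in each, where 0.568% of all genes were called for G3-1 and 0.329% for Bayertitan. No member reached an unadjusted p under 0.05 in either, and DESeq2 called 0. The median log2 fold changes were 0.02 and 0.03. Overload against non-overload gave 0 calls by edgeR and DESeq2 for both, and 0 at an unadjusted p under 0.05, beside 0.0274% and 0% of all genes.

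Non-overload exposure gave no call among the nuclear subunits for any particle. Of all genes, 0.459% were called for G1-1, 0.205% for Printex90, 0% for G3-1 and 0.335% for Bayertitan. DESeq2 called 0 in each, and edgeR's unadjusted p fell under 0.05 for 1 member in G1-1, 2 in Bayertitan and 0 in the others. In the mean of the 4 non-overload responses, 69 of 75 members were positive. Their median log2 fold change was 0.05, beside -0.004 for all genes. Again 0 were called by edgeR or DESeq2, with 6 at an unadjusted p under 0.05 and 4.94% of all genes called.

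Averaged over the 4 particles, the overload response held 16 nuclear members higher and 3 lower, where 31.9% of all genes were called, 14.4% higher and 17.5% lower. The median log2 fold change was 0.05 beside -0.02 for all genes. The 3 lower genes were Ndufb10 at -0.23 ± 0.04 (SE, adjusted p = 8.35e-05), Ndufb7 at -0.19 ± 0.04 (SE, adjusted p = 0.000167) and Ndufs4 at -0.10 ± 0.03 (SE, adjusted p = 0.0103), whose G1-1 values are given above. Of the higher ones, 5 were in complex I, 2 each in complexes II and III, 3 in complex IV and 4 in ATP synthase. The largest were Ndufc1, an accessory subunit of complex I, at 0.17 ± 0.05 (SE, adjusted p = 0.0152), Cox8a at 0.16 ± 0.05 (SE, adjusted p = 0.0114), Ndufc2 at 0.16 ± 0.05 (SE, adjusted p = 0.0237) and Atp5mg at 0.16 ± 0.05 (SE, adjusted p = 0.0278). Across single particles, 22 members were positive in all 4 and 0 were negative in all 4, and none was called in more than 1 particle. The share of all genes with the same sign in all 4 was not computed. With scaling by total counts the median of the mean response was 0.003, beside -0.06 for all genes. With scaling by total counts the mean response held 6 higher and 8 lower, without the 8 libraries with high Col3a1 it held 8 higher and 2 lower, and with the epithelial covariate the 19 calls became 7, 2 higher and 5 lower. Of 7 epithelial markers tested, 5 were themselves lower in the mean overload response, with a median log2 fold change of -0.34. Ndufb7, Ndufb10, Uqcrfs1 and Atp5f1b kept their calls under every alternative. Ndufs4 lost its call without the Col3a1 libraries. Each of the 4 largest higher ones lost it both there and with the epithelial covariate, Atp5mg also with total counts and without Bayertitan overload 2, and Ndufc2 also with total counts and without Printex90 overload 1 or G3-1 overload 2.

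Ndufc1 had the largest positive mean change of the 75 nuclear members, 0.17 against a median of 0.05 on the log2 scale. It measured 20.5, 20.9 and 20.9 CPM in control, 20.7, 24.3 and 21.3 in non-overload and 27.5, 24.2 and 25.03 in overload in G1-1, where overload 2 fell just short of non-overload 2. In Printex90 it measured 21.3, 22.7 and 22.8 CPM in control, 21.8, 20.6 and 26.6 in non-overload and 28.5, 27.4 and 25.5 in overload, and overload lay above control with an adjusted p of 0.0632. In G3-1 it measured 20.8, 21.6 and 24.9 CPM in control, 22.1, 23.3 and 23.1 in non-overload and 22.1, 23.3 and 23.8 in overload, and in Bayertitan 17.4, 24.99 and 24.6 CPM in control, 23.5, 23.1 and 26.3 in non-overload and 21.1, 25.9996 and 21.9 in overload. Those groups overlapped, and Bayertitan control 1 was the lowest of the 36 libraries. Mean overload against mean non-overload gave 2 higher and 3 lower, where 15.5% of all genes were called, 7.54% higher and 7.96% lower. These were Sdhc at 0.09 and Atp5f1b at 0.08, and Ndufb10 at -0.21, Ndufb7 at -0.19 and Ndufv3 at -0.10, the last and Atp5f1b outside the naming rule. The count of 5 became 3 without the low-count filter, without G1-1 non-overload 3, Printex90 overload 1 or G3-1 non-overload 3, 9 with total counts, of which 7 were lower, 10 with the replicate block and 5 lower and 0 higher with the epithelial covariate.

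**Figure D4:**
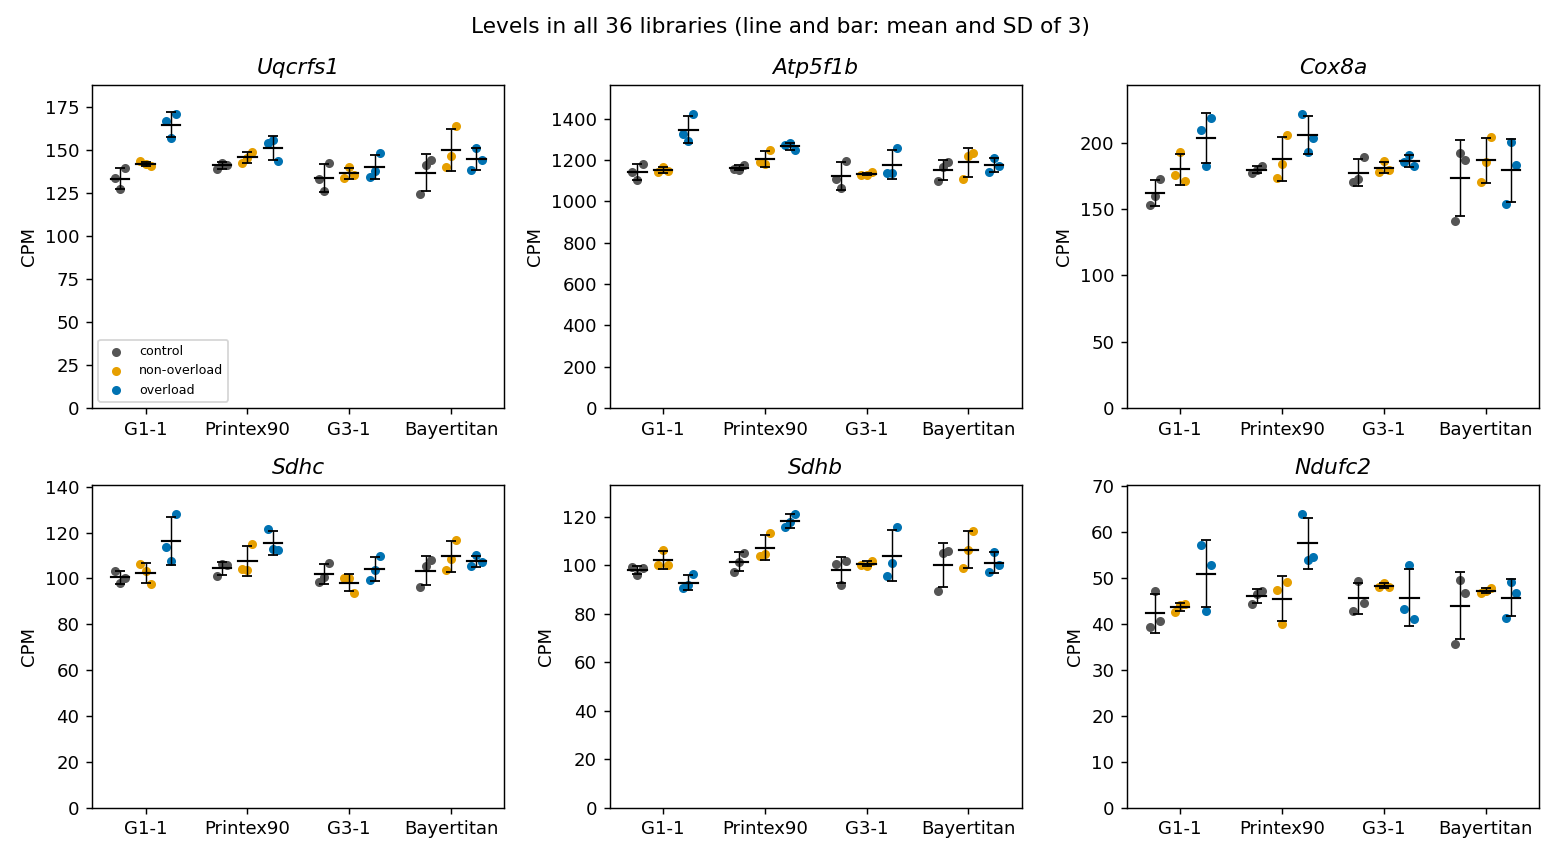
Level in CPM of Uqcrfs1, Atp5f1b, Cox8a, Sdhc, Sdhb and Ndufc2 in each of the 36 libraries, by particle and condition, with each axis starting at 0. G1-1 overload is highest within its particle for Uqcrfs1 and Atp5f1b, while Sdhb is highest in Printex90 overload, at 116 to 121 CPM, and not in G1-1 overload, at 90.5 to 96.4 CPM.

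The overload responses of G1-1 and of the other particles differed for 9 nuclear members, tested as differences between the 2 log2 fold changes with adjustment over all genes. The 3 differences share the G1-1 libraries. Without Bayertitan control 1 the count of 9 became 16. Against Printex90, 8 members responded lower in G1-1, where 11.1% of all genes differed, 6.71% lower and 4.44% higher. Against G3-1, 7 did, beside 9.28% of all genes, 6.16% lower and 3.12% higher. Against Bayertitan 6 were lower and 1 higher, beside 12.3%, with 6.81% lower and 5.44% higher. Ndufb7, Ndufb10, Ndufs4, Ndufv3, Atp5if1 and Atp5pd were lower in all 3. The calls that held under every alternative were 7 of 8 against Printex90, 2 of 7 against G3-1 and 4 of 7 against Bayertitan. Ndufb7 and Ndufb10 were among them in all 3, Ndufs4 and Ndufv3 lost their call against G3-1 without the Col3a1 libraries, and Atp5if1 and Atp5pd lost theirs against G3-1 and Bayertitan without those libraries or without G1-1 overload 2. For Ndufb7 the difference was -0.97 ± 0.10 (SE) against Printex90, -0.81 ± 0.10 (SE) against G3-1 and -0.81 ± 0.10 (SE) against Bayertitan. Sdhb differed between G1-1 and Printex90 by -0.30 ± 0.09 (SE, adjusted p = 0.0255), a call lost without G1-1 control 1, G1-1 overload 2 or Printex90 overload 3. Between the other particles no member passed the test: edgeR called 0 for Printex90 against G3-1, against Bayertitan and for G3-1 against Bayertitan, with 3, 1 and 0 at an unadjusted p under 0.05, 0 by DESeq2, and 0.644%, 1.18% and 0% of all genes called.

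Complex II is the only complex with no mitochondrially encoded subunit, and its 4 genes did not move as 1 unit. Sdha, the flavoprotein that oxidises succinate, measured 166, 156 and 164 CPM in control, 163, 170.1 and 163 in non-overload and 162, 152 and 167 in overload for G1-1. For Printex90 it measured 162, 160.4 and 177 CPM in control, 175, 169 and 186 in non-overload and 181, 173 and 176 in overload. For G3-1 the values were 159, 152 and 166 CPM in control, 165, 162 and 163 in non-overload and 155, 161 and 177 in overload, and for Bayertitan 157, 171 and 169 CPM in control, 158, 174 and 173 in non-overload and 165, 176 and 165 in overload. Control and overload overlapped in every particle, and Sdha was not called in any.

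Sdhb in G1-1 measured 99.2, 96.2 and 99.1 CPM in control, 99.99, 106 and 100.3 in non-overload and 90.5, 91.8 and 96.4 in overload, with overload overlapping the low end of control and a log2 fold change of -0.08 (adjusted p = 0.389). In G3-1 it measured 101, 92.1 and 102 CPM in control, 100.3, 99.9 and 102 in non-overload and 95.7, 101 and 116 in overload, and in Bayertitan 89.6, 105 and 106 CPM in control, 98.9, 106 and 114 in non-overload and 97.3, 106 and 100.3 in overload. These groups overlapped as well, so the gene was called in Printex90 alone.

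Sdhc and Sdhd anchor the enzyme in the membrane. Sdhc measured 103, 97.9 and 100.3 CPM in control, 106, 103 and 97.5 in non-overload and 114, 108 and 128 in overload in G1-1, with overload above control and a log2 fold change of 0.21 ± 0.06 (SE, adjusted p = 0.00684), a call lost without overload 3 and with the epithelial covariate. In Printex90 it measured 101, 106 and 106 CPM in control, 104, 104 and 115 in non-overload and 122, 113 and 113 in overload, again with overload above control, and a log2 fold change of 0.15 (adjusted p = 0.0896). In G3-1 the values were 98.5, 101 and 107 CPM in control, 100.3, 100.3 and 93.7 in non-overload and 99.4, 104 and 109.8 in overload, and in Bayertitan 96.2, 106 and 108 CPM in control, 104, 109 and 117 in non-overload and 105, 110.1 and 107 in overload, with overlap. The mean overload response of Sdhc was 0.11 ± 0.03 (SE, adjusted p = 0.00413), a call lost with the epithelial covariate.

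Sdhd measured 131, 131 and 136 CPM in control, 134, 145 and 134 in non-overload and 157, 127 and 153 in overload in G1-1, where overload 2 lay below the controls and the other overload libraries above them. In Printex90 it measured 135, 137 and 143 CPM in control, 144, 132 and 149.7 in non-overload and 162, 150.03 and 157 in overload, and overload lay above control with a log2 fold change of 0.18 (adjusted p = 0.0603). In G3-1 the values were 131, 127 and 139.5 CPM in control, 139, 135 and 133 in non-overload and 129, 137 and 136 in overload, and in Bayertitan 122, 139.9 and 147 CPM in control, 139, 149 and 153 in non-overload and 136, 141 and 139 in overload, with overlap. Its mean overload response was 0.09 ± 0.03 (SE, adjusted p = 0.0358), a call lost with total counts, with the epithelial covariate, and without G1-1 overload 1 or 3, Printex90 overload 1, G3-1 control 2 or Bayertitan control 1.

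Several subunits of complex IV have a second form that is used in low oxygen or in other tissues. Cox4i1, the common form of subunit 4, lay between 283 and 402 CPM, with a median of 345 CPM. Cox4i2, the lung and hypoxia form, had 348 counts in all. Of these, 335 lay in the 8 libraries with Col3a1 over 10 CPM, each of which had at least 4, while only 5 of the other 28 libraries had any, with at most 9. It was not called in any overload comparison, with an adjusted p of 0.128 in G1-1, and the Col3a1 libraries are the same ones that carry its counts. Ndufa4, placed with complex I by its name but known as a subunit of complex IV, lay between 38.5 and 60.9 CPM. Its homologue Ndufa4l2, which is induced by HIF in other cells, lay between 0 and 0.865 CPM, and its mean overload response was 0.47 ± 0.58 (SE, adjusted p = 0.577). The forms of heart, skeletal muscle and testis, Cox6a2, Cox6b2, Cox7a1, Cox7b2 and Cox8b, were all below the level for members.

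Among the 13 mitochondrially encoded genes, Mt.co1, the catalytic subunit of complex IV, was the only call in any overload comparison with control. In G1-1 it measured 22858, 24169 and 21873 CPM in control, 24764, 23762 and 25279 in non-overload and 31397, 23483 and 28507 in overload. Overload 1 and 3 lay above all controls and overload 2 among them, and the log2 fold change was 0.28 ± 0.09 (SE, adjusted p = 0.0231). In Printex90 it measured 23799, 22949 and 25719 CPM in control, 28472, 23001 and 26504 in non-overload and 28224, 26642 and 27804 in overload. In G3-1 it measured 23349.9, 24464 and 21896 CPM in control, 26339.8, 24780.2 and 25269 in non-overload and 24210.0000, 26353 and 18927 in overload, and in Bayertitan 22334, 24604 and 23045 CPM in control, 25959, 25562 and 25719.5 in non-overload and 25579, 23880.4 and 25211 in overload. Groups of Printex90 did not overlap between control and overload, while those of G3-1 and Bayertitan did. The mean overload response of Mt.co1 was 0.14 ± 0.05 (SE, adjusted p = 0.0206), where 1 of 13 was also what DESeq2 called and 3 were called without G3-1 overload 3. The G1-1 call was lost with scaling by total counts, with the epithelial covariate, and without control 1, control 3, overload 1 or overload 3.

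As a group these genes had medians of different sign by particle, and beside the call for Mt.co1 in G1-1 none passed the test in a single particle. In G1-1 overload 10 of 13 were positive, with a median log2 fold change of 0.14, which lay between 0.08 and 0.24 when 1 library was left out, the lowest without overload 1. The 1 call there became 2 with DESeq2 or the replicate block, 3 when G1-1 was fitted alone and 5 without the libraries with high Col3a1. In Printex90 all 13 were positive and the median was 0.25, yet edgeR called 0, with 4 at an unadjusted p under 0.05 and 0 by DESeq2. With the replicate block 3 were called, and 1 when Printex90 was fitted alone or the Col3a1 libraries were left out. The largest was Mt.nd4l, a small core subunit of complex I, at 0.80 (adjusted p = 0.118), named after its value was seen. In G3-1 all 13 were negative, with a median of -0.19 and 0 calls by edgeR or DESeq2, and 0 at an unadjusted p under 0.05.

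That G3-1 median rested on single libraries. Mitochondrial shares in its overload libraries were 4.17%, 4.59% and 2.94%, and without the third the median became 0.08 with 10 positive. It was -0.02 without control 2 and -0.68 without the libraries with high Col3a1. For Bayertitan the median was -0.06 with 4 positive, 0.06 without control 2 and 0.01 without overload 1, and 0 were called by edgeR or DESeq2, with 0 at an unadjusted p under 0.05. The mitochondrial genes also spread more within groups: the coefficient of variation had a median of 14.6% over the 13 genes, against 7.64% over the 75 nuclear ones. Mt.co1 alone took 56.3% to 64.8% of the mitochondrially encoded counts.

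**Figure D5:**
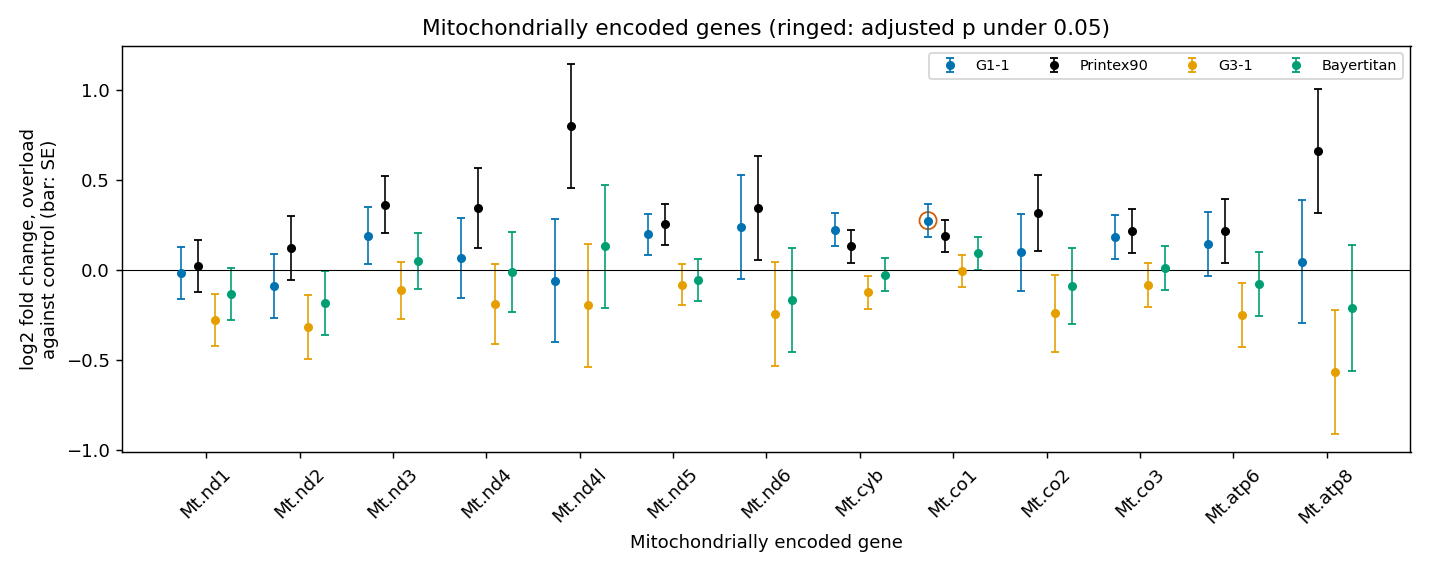
Log2 fold change of overload against control, with its standard error, for each of the 13 mitochondrially encoded genes in the 4 particles, with a ring for an adjusted p under 0.05 in edgeR. Mt.co1 in G1-1 is ringed at 0.28, all 13 points of Printex90 lie above 0 and all 13 of G3-1 below it.

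Genes that build and feed the chain were described from lists. Electron carriers gave 2 of 6 called in the mean overload response: Etfdh at 0.15 (adjusted p = 4.61e-05) and Etfa at 0.06 (adjusted p = 0.0437), the enzymes that hand electrons from fat oxidation to the chain, both higher. Printex90 called these and Etfb at 0.26 (adjusted p = 0.0348), while G1-1 called Cyc1, cytochrome c1 of complex III, higher at 0.17 (adjusted p = 0.0189) and Etfb lower at -0.27 (adjusted p = 0.0195). Among 15 assembly factors of complex I, Ndufaf4 was lower in the mean response at -0.16 (adjusted p = 0.00107) and in G1-1 at -0.31 (adjusted p = 0.0017), and Tmem126b higher in Printex90 at 0.37 (adjusted p = 0.0331). Of 32 assembly factors of the other complexes, 4 were higher and 2 lower in the mean response, led by Coa3 at 0.17 (adjusted p = 0.000117), Coa5 at 0.13 (adjusted p = 0.000291) and Higd1a at 0.35 (adjusted p = 0.000387), and 6 were higher and 4 lower in G1-1. Of all genes 31.9% were called in the mean response, 28.1% in G1-1 and 14.8% in Printex90.

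Mitochondrial ribosomal protein genes, whose products translate the 13 mitochondrial messages, held more lower than higher calls in G1-1 overload, although most members were not called. Of 43 large-subunit genes 15 fell and 3 rose (median log2 fold change -0.15), and of 29 small-subunit genes 11 fell and 0 rose, with a median of -0.18, beside 14.4% of all genes lower and 13.7% higher. In Printex90 only Mrpl10 at 0.16 (adjusted p = 0.0459) and Mrps35 at 0.24 (adjusted p = 0.0495) were called, both higher, beside 7.45% of all genes higher. In the mean response 6 large-subunit genes fell and 1 rose, and 7 small-subunit genes fell and 0 rose, beside 17.5% of all genes lower. Examples are Mrpl12, which also acts in mitochondrial transcription, at -0.17 (adjusted p = 1.75e-06), Mrps7 at -0.19 (adjusted p = 3.2e-05) and Mrps28 at -0.30 (adjusted p = 0.000157). With scaling by total counts 24 and 15 fell in G1-1 and without the Col3a1 libraries 12 and 11, and the medians stayed negative in both.

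Of the import and membrane-shaping genes, a minority was called in G1-1, all lower, where 14.4% of all genes were lower. Of 21 import genes 7 fell and 0 rose, the median log2 fold change being -0.15. In the mean response 4 of the 21 were lower and 1 higher, beside 17.5% and 14.4% of all genes. Among these Grpel1, a co-chaperone of the import motor, changed by -0.13 (adjusted p = 0.00178). Hspa9, its chaperone and the 1 higher gene, changed by 0.05 (adjusted p = 0.0208). Of 14 inner membrane genes 5 fell and 0 rose in G1-1, and 5 were lower and 2 higher in the mean response. Immt, the core of the cristae junction complex, changed by -0.30 (adjusted p = 2.71e-07) in G1-1, Chchd3 of the same complex by -0.36 (adjusted p = 1e-06) and the prohibitin Phb by -0.33 (adjusted p = 3.34e-06). In Printex90 2 of 14 rose in this list, Chchd6 at 0.48 (adjusted p = 0.00147) and Samm50 at 0.11 (adjusted p = 0.0434). Of all genes, 14.8% were called there, 7.45% higher. Total-count scaling gave 10 of 21 and 7 of 14 lower in G1-1, and leaving out the Col3a1 libraries 3 of 21 and 5 of 14. Without G1-1 overload 2 alone, 2 of 21 import genes were lower.

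The pyruvate dehydrogenase and tricarboxylic acid cycle genes held 6 of 16 higher and 1 lower in the mean response, where 14.4% of all genes were higher and 17.5% lower. Pdhx and Pdha1, subunits of pyruvate dehydrogenase, were higher at 0.32 (adjusted p = 7.44e-08) and 0.20 (adjusted p = 3.74e-07), and Dlst of the oxoglutarate dehydrogenase complex at 0.11 (adjusted p = 0.00152). In G1-1 6 were higher and 4 lower, with Idh3a, the cycle's regulated dehydrogenase, at -0.22 (adjusted p = 1.45e-05), beside 13.7% and 14.4% of all genes. In Printex90 5 were higher and 0 lower, beside 7.45% and 7.31%. Carriers of nucleotides, phosphate and protons held 4 of 11 higher and 0 lower in the mean response, with the outer membrane channel Vdac1 at 0.16 (adjusted p = 1.37e-06), Slc25a10, the dicarboxylate carrier, at 0.11 (adjusted p = 0.0137) and Ucp3, an uncoupling protein, at 0.30 (adjusted p = 0.00371). Of 8 antioxidant genes Prdx3 and Sod2, which remove peroxide and superoxide in mitochondria, were higher at 0.13 (adjusted p = 0.00053) and 0.13 (adjusted p = 0.0111).

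Genes of mitochondrial DNA and RNA and of biogenesis gave calls in both directions. Of all genes, 31.9% were called in the mean response, 28.1% in G1-1 and 14.8% in Printex90. Twnk, the mitochondrial DNA helicase, was the only 1 of 14 called in the mean response, at -0.24 (adjusted p = 6.31e-05), and it was lower in Printex90 at -0.39 (adjusted p = 0.00177) and in G1-1 at -0.25 (adjusted p = 0.0249). RNA processing genes were 4 higher and 4 lower of 17, led by Fastk at 0.13 (adjusted p = 0.000194), Hsd17b10, part of mitochondrial RNase P, at -0.15 (adjusted p = 0.00202) and Grsf1 at 0.07 (adjusted p = 0.00703). Of 9 biogenesis regulators Ppargc1b, a coactivator of mitochondrial genes, was higher at 0.15 (adjusted p = 0.0101) and Myc lower at -0.21 (adjusted p = 0.00248) in the mean response. In G1-1 Ppargc1b, Pprc1 and Esrra were higher at 0.33, 0.17 and 0.20, and in Printex90 Myc and Nrf1 were lower at -0.52 and -0.15.

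Genes linked to HIF that are known to shift cells from respiration to glycolysis gave more higher calls than lower ones. Of 9, 6 were higher and 0 lower in the mean overload response, and their median log2 fold change was 0.35. Of all genes, 14.4% were higher. The 6 included Pdk1, the kinase that switches off pyruvate dehydrogenase, at 0.61 (adjusted p = 4.2e-09), Bnip3, a receptor for mitophagy, at 0.85 (adjusted p = 6.13e-09) and Slc2a1, a glucose transporter, at 0.57 (adjusted p = 2.99e-07). G1-1 called 5 and Printex90 6, all higher, beside 13.7% and 7.45% of all genes higher, and Bayertitan called Pdk1 at 0.70 (adjusted p = 0.00493) and Bnip3 at 0.92 (adjusted p = 0.00767). No gene of these mitochondrial and HIF lists other than those 2 was called in G3-1 or Bayertitan overload. The mean of the 4 non-overload responses called 6 of the 9 higher as well. It called 0 of the 75 nuclear subunits and 4.94% of all genes, higher and lower together.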

How the data were processed

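The 36 RNA sequencing libraries were analysed, per the labels made from 150 ng of total RNA after ribosomal RNA depletion. The authors deposited expected counts per gene name, of which 30.5% had decimals. The submitters' processing notes name Salmon, FastQC, MultiQC and the build Rnor_6.0, without versions or settings. Reads of near-identical copies, such as subunit pseudogenes, may be split between them, and the use of strand is not given.

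The deposited counts were rounded and tested in edgeR 4.0.16 (R 4.3.3): TMM scaling, filterByExpr (minimum count 10, minimum total 15), and a quasi-likelihood fit of 12 groups with 24 residual degrees of freedom. Benjamini-Hochberg adjustment ran over all 14606 genes tested, and levels are CPM on TMM-scaled library sizes. Alternatives were DESeq2 1.42.0, its size factors, total-count scaling, no filter, marker covariates, a replicate block, single particles and leaving out libraries. Chi-square values divided by their degrees of freedom lay between 3.82 and 37.2 over the 36 replicate pairs, and no pair was merged. The scripts were tested on simulated counts.

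Replicate numbers paired the libraries of Printex90 control and non-overload, with correlations of 0.21 to 0.43. No member was called in that comparison, and the block changed no call there. In other comparisons the block changed the counts, as given below.

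Members and lists were chosen with earlier results of these data known. Named members are the isoform pairs, complex II, the 4 largest called changes each way in the mean overload response, the 2 largest each way per particle and called mitochondrial genes. For the lists, the rule was to name the 3 smallest p-values in the mean response and any called gene where at most 5 were called. It was not followed throughout, so called genes of the import, carrier and other lists can be unnamed. Other genes are said to be chosen after their values were seen, among them several list genes named for G1-1. Counts of lists under other settings were added after seeing the data. Of the 75 nuclear names, 72 are RefSeq symbols. Markers of muscle, endothelium, lymphocytes and neutrophils summed to at most 83.0, 35.2, 6.49 and 13.4 CPM, and 5 proliferation markers to 191 to 374 CPM.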

Additional observations from a re-analysis of the deposited data

Results flagged for a closer look

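The overload response of G1-1 differed from that of another particle for 9 nuclear subunits, in 22 tests. All passed an adjusted p under 0.05 in edgeR, with adjustment over all genes. Of the 75 subunits, 10.7% differed against Printex90, 9.33% against G3-1 and 9.33% against Bayertitan. Of all genes 11.1%, 9.28% and 12.3% did, so the members differed about as often as genes at large. Each value below is the G1-1 log2 fold change of overload against control minus that of the other particle, with 3 libraries in each group, and the G1-1 libraries enter all of them.

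Against Printex90 the difference was -0.97 (adjusted p = 6.67e-08) for Ndufb7, -0.81 (adjusted p = 1.91e-05) for Ndufb10, -0.40 (adjusted p = 0.00173) for Ndufs4 and -0.43 (adjusted p = 0.00313) for Ndufv3, all of complex I. For ATP synthase it was -0.52 (adjusted p = 0.00272) for Atp5if1, -0.48 (adjusted p = 0.00193) for Atp5pd and -0.21 (adjusted p = 0.0089) for Atp5f1c, and for complex II it was -0.30 (adjusted p = 0.0255) for Sdhb.

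Against G3-1 it was -0.81 (adjusted p = 1.61e-06) for Ndufb7, -0.79 (adjusted p = 2.91e-05) for Ndufb10, -0.35 (adjusted p = 0.00653) for Ndufs4, -0.43 (adjusted p = 0.00343) for Ndufv3, -0.39 (adjusted p = 0.0289) for Atp5if1, -0.34 (adjusted p = 0.0315) for Atp5pd and -0.18 (adjusted p = 0.0298) for Atp5f1c.

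Against Bayertitan it was -0.81 (adjusted p = 1.76e-06) for Ndufb7, -0.69 (adjusted p = 0.000154) for Ndufb10, -0.33 (adjusted p = 0.00974) for Ndufs4, -0.41 (adjusted p = 0.00402) for Ndufv3, -0.37 (adjusted p = 0.0311) for Atp5if1 and -0.35 (adjusted p = 0.0232) for Atp5pd, and 0.21 (adjusted p = 0.0369) for Atp5f1b, the only positive one. The calls for Ndufb7 and Ndufb10 held under every alternative in all 3 differences. Against Printex90, Sdhb alone lost its call, under 3 of 20 alternatives. Against G3-1 all 5 others lost theirs under some alternative, Ndufs4 and Ndufv3 without the libraries with Col3a1 over 10 CPM, Atp5if1 under 4 of 20, and Atp5pd and Atp5f1c under 6 each. Against Bayertitan Atp5if1 lost it under 6 of 20, Atp5pd under 5 and Atp5f1b under 9, among them without either of 2 G1-1 controls.

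The share of ribosomal protein counts, 1.58% to 1.65% in the G1-1 overload libraries and higher in all others, moves with the same libraries, and its part was not tested.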

How the results depend on the processing

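Over 89 member values and 1785 combinations with an alternative, 1546 kept their call, 239 lost it and 0 turned direction. Counts of nuclear members moved by over 1.5 times as follows. In G1-1 overload against control the 24 called became 15 with the epithelial covariate. In Printex90 the 3 called became 1 with total counts or the fibroblast covariate, 0 with the epithelial covariate, 7 when that particle was fitted alone, 10 with DESeq2 and 12 with the replicate block, and in overload against non-overload 0 became 1 with DESeq2. The mean response went from 19 to 7 with the epithelial covariate and to 10 without the libraries with Col3a1 over 10 CPM. Its 1 mitochondrially encoded call became 0 with total counts or the epithelial covariate and 2 without the Col3a1 libraries. The 9 members in the differences became 16 with the replicate block. For 2 counts recomputed after the data were seen, the 5 of mean overload against mean non-overload became 9 with total counts, 3 without the low-count filter and 10 with the replicate block, and the 0 of the mean non-overload response became 1 without the Col3a1 libraries. The cause was not tested.

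Leaving out 1 library gave 11 to 28 members for G1-1 overload against control and 13 to 17 against non-overload, 0 to 7 for Printex90 overload against control, 14 to 27 for the mean response, 1 to 3 for its mitochondrially encoded genes and 7 to 16 for the differences. It gave 3 to 7 for mean overload against mean non-overload and 0 to 1 for the mean non-overload response, the 1 without Printex90 control 3 or non-overload 2. The single-particle counts of nuclear members not named here gave 0 to 0. The mitochondrially encoded calls in G1-1 overload against control were 0 without control 1, control 3, overload 1 or overload 3 and 1 without either of the other 2 libraries. The count for G1-1 overload against control was 11 without overload 3 and 15 without control 1. For Printex90 it was 0 without control 1 or overload 3, 1 without control 2 or overload 1, and 7 without control 3. The highest mitochondrial count came without G3-1 overload 3, and the highest count of differences without Bayertitan control 1.

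Replicate numbers of the same particle paired in 9 of 36 cases by a correlation of deviations over 0.1, and 19 of 36 pairs were closest to their own number. In G3-1 control and overload the correlations were 0.0993 to 0.542. In G1-1 control and overload, and in Bayertitan control with either exposure, all 3 pairs were closest to their own number, with correlations up to 0.11. Whether the block joins related libraries outside Printex90 control and non-overload is therefore not settled. With the block, G1-1 overload against control had 29 calls, the mitochondrially encoded calls went from 1 to 2 in G1-1 and from 0 to 3 in Printex90, and apart from these and the counts above the others stayed within 1.5 times. The mean response and the differences could not be fitted with 1 particle alone. With total-count scaling the median of all genes lay as low as -0.08, in Printex90 overload against control, where TMM scaling gave -0.01. The shares of nuclear counts rose to between 0.858% and 0.954% by group mean when mitochondrially encoded counts were left out of the total. With 3 libraries in a group and a common biological coefficient of variation of 0.103, a member without a call is not shown to be unchanged.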
